A study of Rattus norvegicus with 20 samples.

Results

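The genes of 10 chemokine ligands, Ccl2, Ccl3, Ccl4, Ccl5, Ccl7, Ccl20, Cxcl1, Cxcl2, Cxcl10 and Cxcl16, were followed in the blood cells of WKY and LEW rats. They were taken as the probe sets whose single annotated gene symbol was 1 of these names, which gave 10 probe sets, 1 per gene, of 28826 in all and of 15209 with a single symbol. RNA was measured in 20 male rats of 15 weeks of age from 2 inbred strains, labelled LEW/Crl and WKY/NCrl, each fed for 7 weeks with a standard chow (STD) or with the cafeteria diet (CAF), a choice of palatable, energy-dense human foods. This gave 4 groups of 5 rats, LEW STD, LEW CAF, WKY STD and WKY CAF, with 1 Affymetrix Rat Gene ST array per rat, and all rats were fasted before blood was drawn from the abdominal aorta. The labels call the cells PBMC, while the protocols speak of circulating monocytes obtained on a density gradient, a step that leaves most granulocytes behind, and the methods add that monocytes were kept by their adherence to plastic and the cells that did not adhere, such as most lymphocytes and NK cells, were washed off.

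Chemokines are small secreted proteins that guide leukocytes along a gradient by way of G protein-coupled receptors on the cells that move. Monocytes and macrophages can make the 10 ligands studied here, though they are not the only source. They make many of them within hours of a signal from Toll-like receptors, TNF, IL-1 or interferons. This runs through transcription factors such as NF-kB, AP-1, the STATs and the IRFs. The ligands differ in the cells they call: Ccl2 and Ccl7 act on monocytes through Ccr2, Ccl3, Ccl4 and Ccl5 on monocytes and lymphocytes, Cxcl1 and Cxcl2 on neutrophils through Cxcr2, Cxcl10 on T and NK cells through Cxcr3, Cxcl16 on lymphocytes through Cxcr6, and Ccl20 on lymphocytes and dendritic cells through Ccr6.

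The deposited values are log2 signals per probe set, between 3.57 and 14.37, with array medians of 6.83 to 6.90. Over the 20 arrays Ccl3 had a higher mean signal than 99.8% of probe sets, Ccl2 than 99.7% and Ccl4 than 99.5%, and Cxcl16, Cxcl2 and Ccl5 were above 98.1% or more. Cxcl1 stood above 92.3%, Ccl7 above 86.8% and Cxcl10 above 76.3%, while Ccl20 stood above 48.4%, close to the middle of the array. These are places in the range of signals, and signals of different probe sets are not compared as RNA levels. Markers of all blood cell types looked at were measured, and the mean log2 signal per array of 13 monocyte markers was 9.96 to 10.71, that of 13 T cell markers 10.68 to 11.07 and that of 5 B cell markers 9.88 to 10.38, so the RNA was not that of monocytes alone. In such RNA, fewer cells of a type and less of a transcript per cell cannot be told apart. In 4 arrays (LEW STD rats 2 and 3, LEW CAF rat 2 and WKY STD rat 1) the heat shock gene Hspb1 was at 7.60 to 9.43 on the log2 scale, against 5.44 to 6.09 in the other 16. The counts called between the strains, of the ligands and of each gene list reported below, are given with and without these arrays.

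Most of these genes were higher in WKY than in LEW rats, and no difference between the diets passed the test. On CAF, 6 of the 10 ligands were called higher in WKY than in LEW rats (limma, adjusted p under 0.05 over all probe sets) and 0 lower, against 4.24% of all probe sets called higher and 3.34% called lower. On STD, 6 of 10 were called higher and 0 lower, against 5.88% and 5.38% of all probe sets. Ccl4, Ccl5, Cxcl1, Cxcl2 and Cxcl10 were called on both diets, 5 of 10 ligands against 2.97% of probe sets, and Ccl2 was called on CAF and Ccl3 on STD. The median log2 difference of the 10, WKY minus LEW, was 0.68 on CAF and 0.63 on STD, whereas over all probe sets it was -0.01 and 0.00. Probe sets of high signal were called more often, and among those at or above the median mean signal 7% on CAF and 8.96% on STD were called higher. Without the 4 arrays of high Hspb1, 4 ligands were called on CAF (Ccl2, Ccl5, Cxcl1 and Cxcl10) and 3 on STD (Cxcl1, Cxcl2 and Cxcl10). With 1 rat left out at a time, 2 to 6 ligands were called on CAF, with 2 without LEW CAF rat 3 and 3 without LEW CAF rat 1 or WKY CAF rat 1, 2 or 4, and 3 to 6 on STD, with 3 without WKY STD rat 2. With the mean of NK, neutrophil or immediate-early genes of each array as a covariate, means that themselves differed between the strains, 0 of the 10 ligands were called on either diet. With the NK mean the log2 differences of the called ligands other than Ccl5 were about as large or larger, whereas with the neutrophil or immediate-early mean those of Cxcl1, Cxcl2 and Cxcl10 were smaller.

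**Figure D1:**
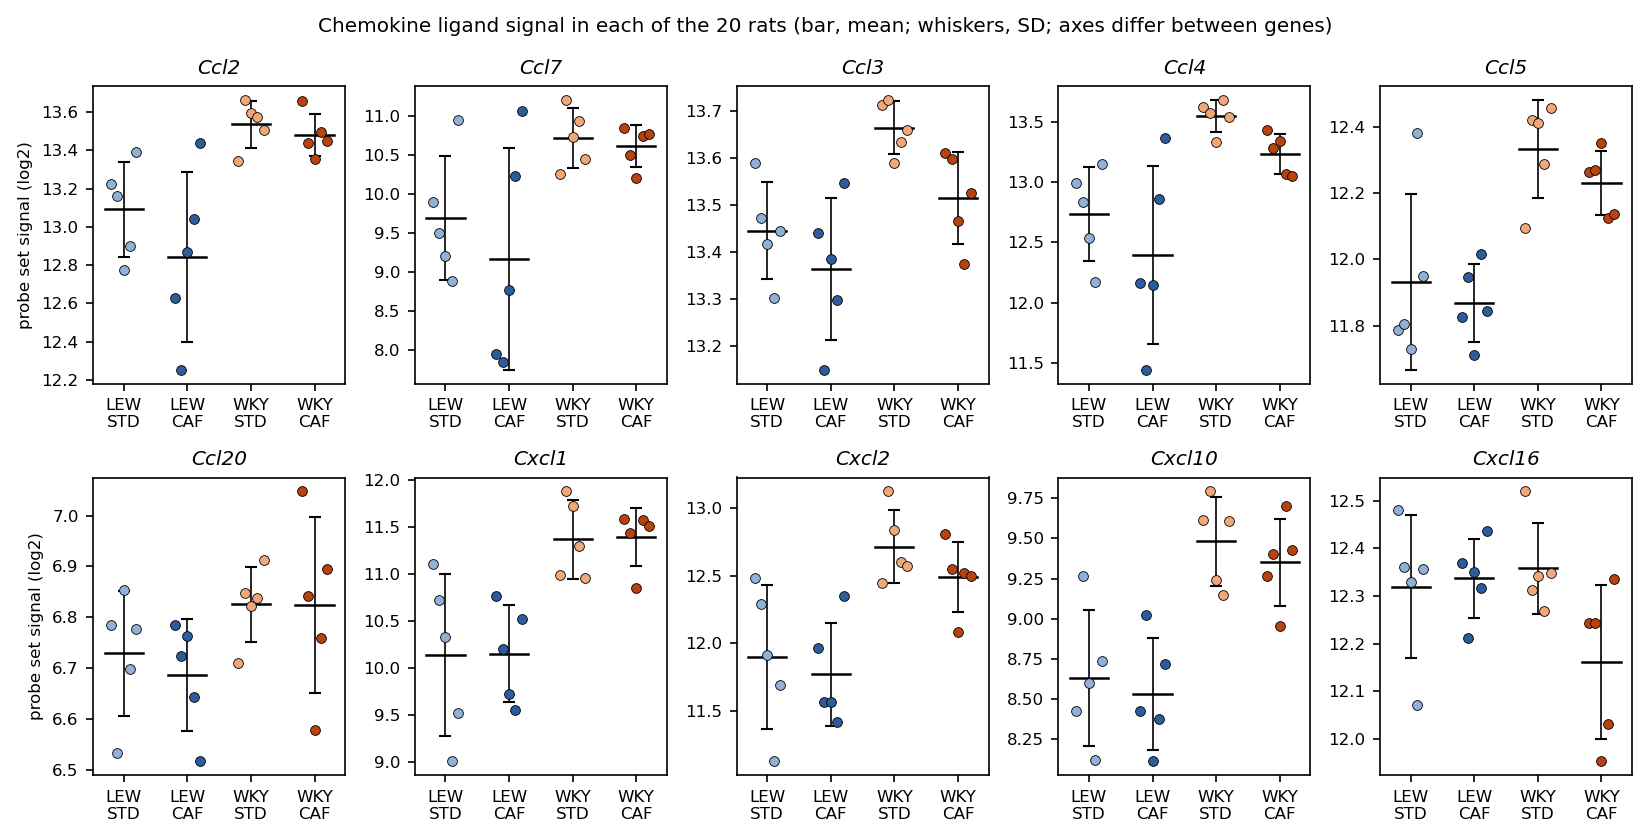
Each panel plots the log2 probe set signal of 1 ligand in the 20 rats, 5 points per group, with the group mean as a bar and the SD as whiskers, and the axes differ between panels. The LEW points of Ccl2, Ccl4 and Ccl7 are widely spread, with LEW CAF rat 5 level with the WKY rats, whereas those of Ccl20 and Cxcl16 overlap in all groups.

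Ccl2 and Ccl7, also called MCP-1 and MCP-3, recruit monocytes, and their genes lie next to each other, with 0 other protein-coding genes between them in the rat reference. In LEW rats, Ccl2 was at 13.23, 13.16, 12.78, 12.90 and 13.39 on STD and at 12.63, 12.25, 12.87, 13.04 and 13.44 on CAF (log2 signal, rats 1 to 5). In WKY rats it was at 13.34, 13.67, 13.60, 13.58 and 13.51 on STD and at 13.66, 13.44, 13.36, 13.50 and 13.45 on CAF. The WKY rats lay together at the upper end, and on each diet LEW rat 5 alone reached into their range. The group means were 12.85 ± 0.44 in LEW CAF and 13.48 ± 0.11 in WKY CAF rats (SD, n = 5), a log2 difference of 0.64 ± 0.16 (SE, 95% interval 0.31 to 0.96, limma adjusted p = 0.0132), or 1.55-fold. On STD the log2 difference of Ccl2 was 0.45 ± 0.16, which did not pass (adjusted p = 0.0738). The call on CAF was kept whichever rat was left out, and the value on STD passed without LEW STD rat 5 (adjusted p = 0.0494).

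Ccl7 varied more between LEW rats than nearly any other probe set. In LEW rats it was at 9.89, 9.50, 9.21, 8.89 and 10.95 on STD and at 7.94, 7.84, 8.76, 10.22 and 11.06 on CAF. WKY rats had values of 10.25, 11.21, 10.72, 10.94 and 10.44 on STD and 10.84, 10.49, 10.19, 10.74 and 10.77 on CAF. LEW CAF rats 1, 2 and 3 were far below every WKY rat, whereas LEW CAF rat 5 was above all WKY CAF rats. The mean was 9.16 ± 1.42 in LEW CAF and 10.61 ± 0.27 in WKY CAF rats (SD, n = 5), so that the largest log2 difference of the 10 ligands on CAF, 1.44 ± 0.48 (SE, 95% interval 0.43 to 2.46), did not pass the test (limma adjusted p = 0.0801). It passed without LEW CAF rat 4 (adjusted p = 0.0445) and without LEW CAF rat 5 (adjusted p = 0.00611). On STD the log2 difference of Ccl7 was 1.02 ± 0.48 with an adjusted p of 0.208. The 250 bases before the Ccl7 start site in the rat reference, with the 1 AP-1 motif match found there (TGANTCA, read on both strands, 73 to 67 bases before the start) in capitals, are printed here because Ccl7 had the widest spread of the ligands (RefSeq, GRCr8, chr10:67513845-67514094, plus strand).
Ccl7: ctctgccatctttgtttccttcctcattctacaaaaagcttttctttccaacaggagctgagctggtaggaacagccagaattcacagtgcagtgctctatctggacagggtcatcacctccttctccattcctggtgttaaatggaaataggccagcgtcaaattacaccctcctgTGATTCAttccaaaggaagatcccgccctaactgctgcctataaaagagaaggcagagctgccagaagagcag
A match to TGANTCA was present in 6.34% of the promoters of this length in the reference. The reference is of neither strain studied, and a match is a description of letters and not of a bound site.

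Ccl3, Ccl4 and Ccl5, known as MIP-1α, MIP-1β and RANTES, attract monocytes, NK cells and T cells. Ccl3 and Ccl4 are neighbours with 0 protein-coding genes between them, and 2 such genes lie between Ccl3 and Ccl5. In LEW rats, Ccl4 was at 12.997, 12.84, 12.54, 12.17 and 13.15 on STD and at 12.17, 11.44, 12.15, 12.86 and 13.36 on CAF. In WKY rats it was at 13.63, 13.57, 13.33, 13.69 and 13.54 on STD and at 13.43, 13.29, 13.34, 13.06 and 13.05 on CAF. On STD the strains did not overlap, and on CAF LEW rat 5 was above 4 of the 5 WKY rats. Ccl4 was higher in WKY rats by 0.84 ± 0.25 on CAF (log2, SE, 95% interval 0.32 to 1.35, limma adjusted p = 0.0424) and by 0.81 ± 0.25 on STD (adjusted p = 0.0380). These calls rested on the full set of rats: the adjusted p rose above 0.05 when any of 8 of the 10 rats was left out on CAF (all but LEW CAF rats 4 and 5, up to 0.105) and any of 7 of 10 on STD (LEW STD rats 2, 3 and 4 and WKY STD rats 1, 2, 4 and 5, up to 0.103).

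Ccl5 showed a smaller and tighter difference. In LEW rats it was at 11.79, 11.81, 11.73, 12.38 and 11.95 on STD and at 11.83, 11.95, 11.71, 12.02 and 11.84 on CAF. The WKY values were 12.09, 12.42, 12.41, 12.29 and 12.46 on STD and 12.26, 12.27, 12.35, 12.13 and 12.14 on CAF. On CAF the strains did not overlap, and on STD only LEW rat 4 reached into the WKY range. The log2 difference of Ccl5 was 0.36 ± 0.10 on CAF (SE, limma adjusted p = 0.0312) and 0.40 ± 0.10 on STD (adjusted p = 0.0118). On CAF the call was lost when LEW CAF rat 1, 3 or 5 was left out, and likewise for rats 1, 2 and 3 of WKY CAF, with an adjusted p of up to 0.0906, and on STD it was kept whichever rat was left out. Ccl5 is also made by NK and cytotoxic T cells, and the mean log2 signal of 12 NK and cytotoxic markers was 9.50 to 10.07 in LEW and 10.18 to 10.63 in WKY rats, without overlap. Of these 12 markers 8 were called higher and 1 lower in WKY rats on CAF, and 10 higher and 1 lower on STD, or 10 and 2 on each diet without the 4 arrays of high Hspb1. With that mean as a covariate the log2 difference of Ccl5 turned to -0.07 on CAF and -0.15 on STD. Across rats the deviation of Ccl5 from its group mean had a Pearson r of 0.77 with that of the marker mean, the points sharing the arrays and their normalisation. The part of NK cells in the difference of Ccl5 was not tested, and it cannot be told apart from the strain in these arrays.

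Ccl3 had small differences, measured close to the top of the signal range, where array signals can flatten. Whether they did here was not tested. It ran from 13.30 to 13.59 in LEW STD, from 13.15 to 13.55 in LEW CAF, from 13.59 to 13.73 in WKY STD and from 13.38 to 13.61 in WKY CAF rats. The strains overlapped on both diets, on STD barely. Ccl3 was higher in WKY rats by 0.22 ± 0.07 on STD (log2, SE, limma adjusted p = 0.0404), a call that was lost when any of 8 of the 10 rats was left out (all but LEW STD rat 1 and WKY STD rat 3, adjusted p up to 0.106), and its difference of 0.15 ± 0.07 on CAF did not pass (adjusted p = 0.225). Both 95% intervals of Ccl3 lay within 1.5-fold.

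Cxcl1 and Cxcl2, known as KC or GRO and MIP-2, call neutrophils and are neighbours with 0 protein-coding genes between them. Cxcl1 had the largest differences that passed the test on each diet. In LEW rats Cxcl1 was at 11.11, 10.73, 10.33, 9.01 and 9.53 on STD and at 10.77, 10.20, 9.73, 9.55 and 10.53 on CAF. In WKY rats it was at 10.99, 11.89, 11.73, 11.30 and 10.96 on STD and at 11.59, 11.44, 10.86, 11.58 and 11.52 on CAF. On CAF every WKY rat was above every LEW rat, and on STD LEW rat 1 was above WKY rats 1 and 5. Of all probe sets, 4.16% had all WKY CAF above all LEW CAF rats, as 2 of the 10 ligands had (Ccl5 and Cxcl1), and 4.37% had this on STD, as 1 ligand had (Ccl4). Over both diets, 10 WKY against 10 LEW rats, 0 of the 10 ligands were without overlap, against 1.59% of probe sets. The log2 difference of Cxcl1 was 1.24 ± 0.32 on CAF (SE, 95% interval 0.56 to 1.92, limma adjusted p = 0.0206), or 2.36-fold, and 1.23 ± 0.32 on STD (adjusted p = 0.0160). The call on CAF was lost without LEW CAF rat 3, LEW CAF rat 4 or WKY CAF rat 4 (adjusted p up to 0.0627) and that on STD without LEW STD rat 5 (adjusted p = 0.0507).

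Cxcl2 followed with smaller differences. In LEW rats Cxcl2 was at 12.48, 12.29, 11.91, 11.13 and 11.69 on STD and at 11.96, 11.56, 11.57, 11.42 and 12.35 on CAF. The WKY values were 12.44, 13.12, 12.83, 12.60 and 12.57 on STD and 12.80, 12.55, 12.09, 12.52 and 12.50 on CAF. LEW STD rat 1 was just above the lowest WKY STD rat and LEW CAF rat 5 above the lowest WKY CAF rat, while the other LEW rats lay below the WKY rats of their diet. The log2 difference was 0.72 ± 0.22 on CAF (SE, limma adjusted p = 0.0467) and 0.81 ± 0.22 on STD (adjusted p = 0.0172). On CAF the call was lost when any of 8 of the 10 rats was left out (all but LEW CAF rat 5 and WKY CAF rat 3, adjusted p up to 0.124), and on STD without WKY STD rat 2 (adjusted p = 0.0542). The sequences before the start sites of this pair are shown because both genes rose in WKY rats on each diet and moved together from rat to rat (RefSeq, GRCr8, 250 bases each, minus strand, chr14:17479322-17479571 for Cxcl1 and chr14:17467256-17467505 for Cxcl2), with matches to the NF-kB consensus, searched on both strands, in capitals.
Cxcl1: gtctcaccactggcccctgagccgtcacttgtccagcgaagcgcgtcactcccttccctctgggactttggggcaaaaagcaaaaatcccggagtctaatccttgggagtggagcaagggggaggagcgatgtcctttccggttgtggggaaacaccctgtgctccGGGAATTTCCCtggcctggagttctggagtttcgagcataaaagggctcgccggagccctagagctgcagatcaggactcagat
Cxcl2: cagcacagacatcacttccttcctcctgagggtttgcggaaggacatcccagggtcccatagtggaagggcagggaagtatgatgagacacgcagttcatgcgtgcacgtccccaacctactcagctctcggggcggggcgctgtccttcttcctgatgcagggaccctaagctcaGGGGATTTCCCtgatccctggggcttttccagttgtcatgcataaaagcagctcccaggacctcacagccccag
Each holds a pair of overlapping matches close to the start: GGGAATTTCC and GGAATTTCCC in Cxcl1, the first 84 to 75 bases before the start, and GGGGATTTCC and GGGATTTCCC in Cxcl2, the first 74 to 65 bases before it. A match to the consensus was present in 3.54% of the reference promoters of this length. Ccl20 also held 1, GGAAAACCCC, 89 to 80 bases before its start. No letters of the NF-kB, AP-1, interferon-stimulated response element (ISRE) or interferon-gamma activated site (GAS, TTCNNNGAA) motifs were found in the window of Cxcl16. The promoter table held 6 of the 10 ligands, without Ccl2, Ccl3, Ccl4 and Ccl5. 

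The neutrophil markers, like the neutrophil-attracting pair, were mostly higher in WKY rats. The mean log2 signal of 10 neutrophil markers was 7.87 to 9.51 in LEW and 9.08 to 10.59 in WKY rats, and 4 of the 10 were called higher in WKY rats on CAF and 8 on STD, with 0 lower, or 6 and 8 without the 4 arrays of high Hspb1. With this mean as a covariate, an adjustment chosen after seeing the data, the log2 difference of Cxcl1 was 0.81 on CAF and 0.51 on STD and that of Cxcl2 0.39 and 0.26, none of them called (adjusted p from 0.444 to 0.906). From rat to rat, in deviations from group means, the neutrophil mean had a Pearson r of 0.35 with Cxcl1 and 0.40 with Cxcl2. The highest r of the 10 ligands with this mean was that of Cxcl10, 0.67. The immediate-early genes, which cells switch on within minutes of handling or a stimulus, moved as well, with 5 of 13 called higher in WKY rats on CAF and 11 on STD, or 9 and 12 without the 4 arrays, and a mean log2 signal of 10.31 to 11.07 in LEW and 10.92 to 11.48 in WKY rats. With their mean as a covariate, also chosen after seeing the data, Cxcl1 differed by 0.47 on CAF and 0.12 on STD (adjusted p = 0.760 and 0.973), and Cxcl2 by 0.24 and 0.12. With the NK mean as a covariate the values were larger than without it, 1.92 and 2.10 for Cxcl1 and 1.25 and 1.504 for Cxcl2 on CAF and STD, and were not called (adjusted p from 0.0516 to 0.105). The part of neutrophil RNA or of cell activation in these differences was not tested.

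The same covariates were set for the other called ligands. With the NK, neutrophil and immediate-early means in turn, the log2 difference of Ccl2 on CAF was 0.90, 0.60 and 0.74. That of Ccl4 was 1.37, 0.97 and 0.98 on CAF and 1.502, 1.04 and 1.02 on STD, above its values without a covariate. That of Ccl3 on STD was 0.47, 0.26 and 0.14. None of these was called (limma adjusted p from 0.0509 to 0.765). With the monocyte marker mean as a covariate, the log2 difference of Ccl4 was 0.51 on CAF and 0.72 on STD, below its values without a covariate. Neither was called (limma adjusted p = 0.518 and 0.0728). With that mean Ccl2 differed by 0.65 and Ccl5 by 0.27 on CAF, and neither was called (limma adjusted p = 0.125 and 0.381).

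Cxcl10, or IP-10, is induced by interferons and attracts activated T and NK cells. In LEW rats it was at 8.43, 9.27, 8.60, 8.12 and 8.74 on STD and at 8.42, 9.02, 8.11, 8.38 and 8.72 on CAF. WKY rats had values of 9.62, 9.79, 9.24, 9.15 and 9.61 on STD and 9.27, 9.40, 8.96, 9.70 and 9.43 on CAF. On each diet LEW rat 2 alone reached into the WKY range. The log2 difference was 0.82 ± 0.19 on CAF (SE, 95% interval 0.41 to 1.22, limma adjusted p = 0.0101) and 0.85 ± 0.19 on STD (95% interval 0.45 to 1.25, adjusted p = 0.00579), the smallest adjusted p of the 10 ligands on either diet, and both calls were kept whichever rat was left out. Interferon-stimulated genes were also mostly higher in WKY rats. Of 13 measured, 10 were called higher in WKY rats on CAF and 12 on STD, the same counts as without the 4 arrays of high Hspb1. Their median log2 difference was 1.09 and 1.57, and their mean log2 signal was 7.72 to 8.42 in LEW and 8.58 to 9.76 in WKY rats, without overlap. Over the 20 arrays, the deviations of Cxcl10 and of that mean from their group means had a Pearson r of 0.53. The r of Cxcl10 was higher with the means of genes that induce chemokines (0.73), of neutrophil markers (0.67) and of genes that restrain chemokine production (0.61). Irf7 is in both the interferon-stimulated and the inducing list. With the NK mean as a covariate Cxcl10 differed by 0.82 on CAF and 0.85 on STD, with the immediate-early mean by 0.40 and 0.24, and with the neutrophil mean by 0.33 and 0.03, none of them called (limma adjusted p from 0.273 to 0.989). The promoter of Cxcl10 is shown because it held matches to 3 of the 4 motifs (RefSeq, GRCr8, chr14:15988816-15989065, plus strand), in capitals.
Cxcl10: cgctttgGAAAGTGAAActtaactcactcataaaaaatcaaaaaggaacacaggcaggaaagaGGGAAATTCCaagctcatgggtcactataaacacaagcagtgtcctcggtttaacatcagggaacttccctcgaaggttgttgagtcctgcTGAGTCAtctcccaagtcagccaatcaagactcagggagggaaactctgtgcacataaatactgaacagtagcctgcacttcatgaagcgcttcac
These are the ISRE match GAAAGTGAAA, 243 to 234 bases before the start, the NF-kB match GGGAAATTCC, 187 to 178 bases before it, and the AP-1 match TGAGTCA, 96 to 90 bases before it. An ISRE match was present in 3.41% of the reference promoters and a GAS match, which none of the 6 ligands held, in 7.67%.

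Cxcl16 and Ccl20 did not pass in any comparison. Cxcl16 is made as a membrane protein that also takes up oxidised lipoproteins, and its soluble part is cut off by Adam10 and Adam17. Its log2 signal was 12.07 to 12.48 in LEW STD, 12.21 to 12.44 in LEW CAF, 12.27 to 12.52 in WKY STD and 11.95 to 12.34 in WKY CAF rats. WKY CAF was the lowest group, and it overlapped with each of the others. The log2 difference of Cxcl16, WKY minus LEW, was -0.18 ± 0.08 on CAF (SE, 95% interval -0.34 to -0.01, limma adjusted p = 0.222), the only negative value of the 10 ligands in that comparison, and 0.04 ± 0.08 on STD (adjusted p = 0.834). Ccl20, which draws cells bearing Ccr6, was at 6.52 to 6.85 in LEW and 6.58 to 7.05 in WKY rats, with differences of 0.14 ± 0.08 on CAF and 0.10 ± 0.08 on STD (adjusted p = 0.367 and 0.505). With a signal in the middle of the array, a change of Ccl20 would be hard to see. The intervals of both genes lay within 1.5-fold on each diet.

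**Figure D2:**
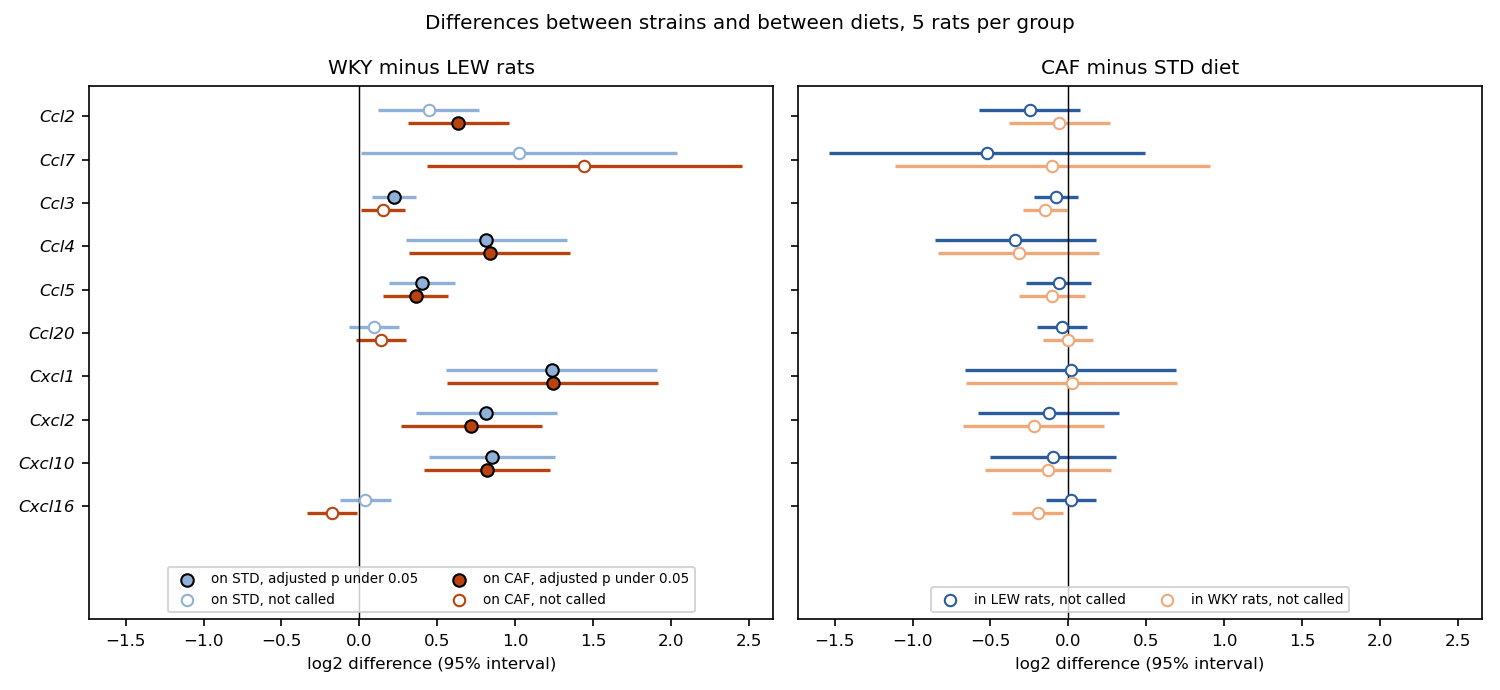
Points are log2 differences of the 10 ligands and lines their 95% intervals, on the left WKY minus LEW rats on each diet and on the right CAF minus STD in each strain, 5 rats per group, with filled points for an adjusted p under 0.05 and open points otherwise. On the left 6 points on each diet are filled, all above 0, and on the right none is.

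The diet left no call among the ligands. In LEW rats 0 of 10 were called (limma, lowest adjusted p = 0.934) and 0 had an unadjusted p under 0.05, against 0% and 5.46% of all probe sets. In WKY rats 0 were called and 2 had an unadjusted p under 0.05, against 0% and 8.81% of probe sets. These 2 were Cxcl16, with a log2 difference of -0.20 ± 0.08 between CAF and STD (SE, limma adjusted p = 0.460), and Ccl3, with -0.15 ± 0.07 (adjusted p = 0.537). Most values were below 0, in 8 ligands in LEW and 9 in WKY rats, with medians of -0.09 and -0.12 where all probe sets had 0.00 and -0.01. The intervals excluded a change of 1.5-fold for 7 ligands in LEW and 6 in WKY rats. Ccl2 was among them in both strains, with -0.25 (95% interval -0.57 to 0.08) in LEW and -0.06 (-0.38 to 0.27) in WKY rats. For Ccl7 the intervals were wide, -1.53 to 0.49 in LEW and -1.11 to 0.91 in WKY rats, and for Ccl4 they were -0.86 to 0.18 and -0.83 to 0.20. These intervals use 1 spread per gene for all groups, but Ccl2, Ccl4 and Ccl7 varied more in LEW than in WKY rats. The SD of Ccl2 within groups was 0.36 in LEW and 0.12 in WKY rats. For these genes the intervals are narrower in LEW rats, and wider in WKY rats, than the spread of that strain alone would give. A 1.5-fold change of Ccl2 is therefore not safely excluded in LEW rats. Cxcl1 differed by 0.02 between the diets in each strain, with intervals of -0.66 to 0.69 and -0.66 to 0.70. The diet by strain interaction, the diet difference of the WKY strain less that of the LEW strain, was called for 0 of 10 ligands and 0% of probe sets (limma, lowest adjusted p of a ligand 0.851), with 0 ligands and 5.95% of probe sets at an unadjusted p under 0.05. It was 0.19 for Ccl2 (95% interval -0.27 to 0.65), 0.42 for Ccl7 (-1.01 to 1.85) and -0.21 for Cxcl16 (-0.44 to 0.02).

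The ligands differed in how much they varied between rats of a group, and 3 of them varied far more in LEW than in WKY rats. The SD within groups, pooled over the diets, was 1.15 for Ccl7 in LEW and 0.33 in WKY rats, a ratio of 3.51. It was 0.59 and 0.15 for Ccl4, a ratio of 3.87, and 0.36 and 0.12 for Ccl2, a ratio of 3.07. Over all probe sets the median ratio was 1.03, and 0.253% of them had a higher ratio than Ccl4, 0.468% than Ccl7 and 0.968% than Ccl2. In LEW rats 0.0173% of probe sets had a higher SD than Ccl7. The ratio was 1.93 for Cxcl1, 1.75 for Cxcl2, 1.64 for Ccl5, 1.63 for Ccl3 and 1.43 for Cxcl10, and below 1 for Cxcl16 (0.913) and Ccl20 (0.871). These ratios are a description of 10 rats per strain. The fit uses 1 spread per gene for all groups, which lies between the strains for such genes. In WKY rats Ccl2, at 13.34 to 13.67, and Ccl4, at 13.05 to 13.69, lay close to the top of the signal range, like Ccl3. Whether array signals flattened there was not tested.

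Some of the ligands rose and fell together from rat to rat. Over the 20 rats, 45 pairs of ligands were compared, with each value taken as its deviation from the group mean. Of these, 6 had an adjusted p under 0.05 in a permutation test within groups, all with a positive r. How often pairs of other probe sets would pass was not counted, and the values share the arrays and their normalisation. The closest genes outside the list, given below, reached r of similar size, so such r are not particular to pairs of ligands. Ccl2 and Ccl7 had a Pearson r of 0.92 and a Spearman rho of 0.92, with a two-sided permutation p of 1e-05 for r, the smallest the permutations could give, and 3e-05 for rho (adjusted 0.000225 and 0.000675). Cxcl1 and Cxcl2 had an r of 0.92 with the same permutation p and a rho of 0.93 (permutation p = 2e-05, adjusted 0.000675). Without the 2 rats farthest from the median, r was 0.86 in both pairs, and within strains it was 0.92 and 0.86 for Ccl2 and Ccl7 and 0.92 and 0.91 for Cxcl1 and Cxcl2, in LEW and WKY rats. Cross-hybridisation between neighbours of similar sequence was not tested, as the probes were not looked at.

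Ccl4 went with the Ccl2 and Ccl7 pair in LEW rats. The r of Ccl4 over 20 rats was 0.87 with Ccl2 (rho 0.74, permutation p = 0.00174, adjusted 0.0157) and 0.86 with Ccl7 (rho 0.77, permutation test, adjusted p = 0.0141), and 0.67 and 0.73 without the 2 farthest rats. In LEW rats these r were 0.95 and 0.93 and in WKY rats 0.02 and -0.12. In WKY rats, where Ccl2 varied little, Ccl2 had an r of 0.88 with Cxcl2 and 0.78 with Cxcl1, against 0.40 and 0.03 in LEW rats. The differences in r between the strains were not tested. The remaining pairs that passed were Ccl3 with Cxcl16 (r = 0.75, rho = 0.79, adjusted permutation p = 0.0033) and Ccl3 with Cxcl2 (r = 0.69, rho = 0.67, adjusted permutation p = 0.0214). The neighbours Ccl3 and Ccl4 had a similar r of 0.69, with a rho of 0.45, and did not pass (adjusted permutation p = 0.0689). Ccl5 tended the other way, with an r of -0.65 with Cxcl16 (adjusted permutation p = 0.0567).

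**Figure D3:**
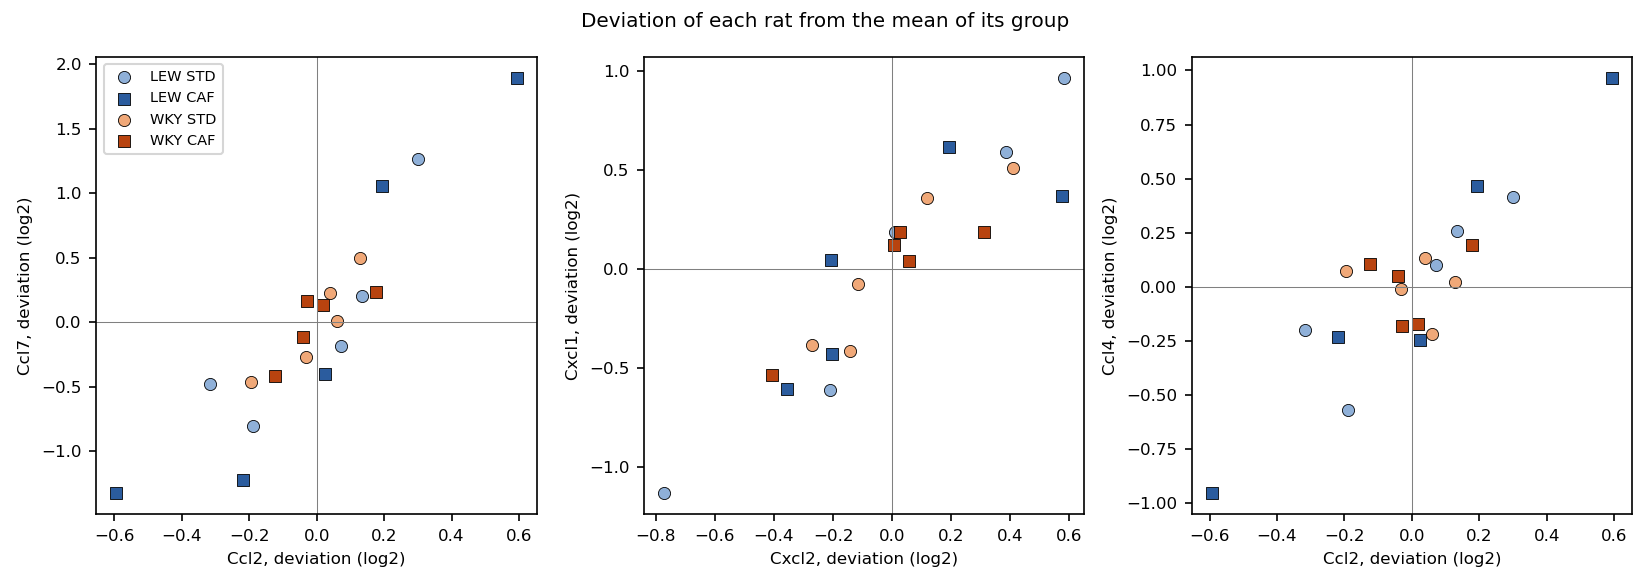
Each point is 1 rat, placed by its deviation from its group mean in log2 units for Ccl2 and Ccl7 (left), Cxcl2 and Cxcl1 (middle) and Ccl2 and Ccl4 (right), with circles for STD and squares for CAF. On the left and in the middle all 4 groups follow a line (r = 0.92 in both), and on the right the LEW rats do (r = 0.95) while the WKY rats form a cluster (r = 0.02).

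**Figure D4:**
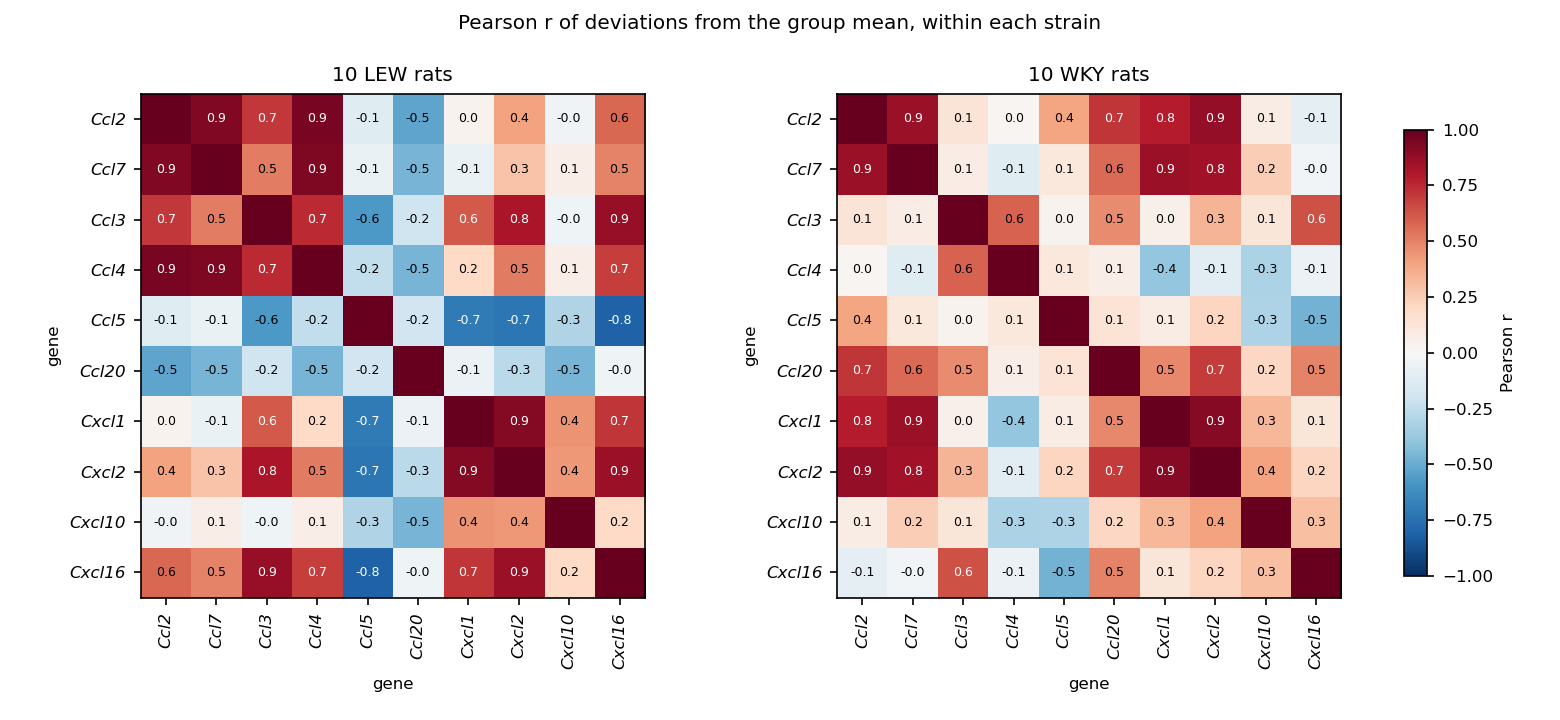
The colour and number in each cell give the Pearson r of a pair of ligands, from deviations from the group mean, in 10 LEW rats (left) and 10 WKY rats (right). The Ccl2 and Ccl7 and the Cxcl1 and Cxcl2 cells are dark in both, and Ccl4 goes with Ccl2 and Ccl7 on the left only, a difference that was not tested.

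The named genes outside the list whose deviations were most like those of each ligand, over 20 rats, are given as a description. For Ccl3 the closest was Tnf, with an r of 0.96 (0.98 in LEW and 0.91 in WKY rats). For Cxcl2 they were Ptges (0.92), which makes prostaglandin E, and Nrp2 (0.91), and for Cxcl1 they were Nrp2 and Rassf4 (0.89 each). For Ccl5 they were Cacnb4 (0.88) and the granzyme gene Gzmk of cytotoxic cells (0.86). Commd9 came first for Ccl2 (0.90) and for Ccl4 (0.94), followed by Timm8b (0.87) and Mtor (0.90). These r were lower in WKY than in LEW rats. For Ccl2 they were 0.93 in LEW and 0.59 in WKY rats with Commd9, and 0.95 and 0.18 with Timm8b. For Ccl4 they were 0.97 and 0.42 with Commd9, and 0.94 and 0.70 with Mtor. Trappc3 and Tsc2 came first for Ccl7 (0.91 each), with 0.95 and 0.94 in LEW but 0.40 and 0.58 in WKY rats. For Cxcl10 they were H2bc18 and P4hb (0.88 each), for Cxcl16 Cyfip1 (0.84) and Gapdh (0.82), and for Ccl20 Nr0b2 (0.75) and Pvalb (0.74). Among the inducers, Il1a and Il1b had an r of 0.90 and 0.87 with Cxcl2 and of 0.82 and 0.85 with Cxcl1.

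The receptors of these ligands went both ways. Of 10 receptor genes measured, 3 were called higher and 3 lower in WKY rats on CAF, and 2 higher and 3 lower on STD, and 7.58% and 11.3% of all probe sets were called either way. Without the 4 arrays of high Hspb1 the counts were 3 and 3 on CAF and 2 and 4 on STD. The receptor of Ccl2 and Ccl7, Ccr2, was lower in WKY rats by a log2 difference of -1.38 ± 0.14 on CAF and -1.01 ± 0.14 on STD (SE, limma adjusted p = 9.64e-07 and 4.11e-05). Ccr6 of Ccl20 was lower by -0.80 ± 0.09 and Cxcr3 of Cxcl10 by -0.54 ± 0.08 on CAF (adjusted p = 2.70e-06 and 0.000230). Ccrl2, a receptor that binds chemerin and does not signal, was higher by 1.88 ± 0.16 (adjusted p = 9.02e-08). It is counted among the 10 and among those called higher on each diet, although it is not a signalling receptor of these ligands. The other calls on CAF, named after their values were seen, were Cxcr2 of Cxcl1 and Cxcl2 (1.22 ± 0.37, adjusted p = 0.0478) and Cxcr6 of Cxcl16 (0.62 ± 0.15, adjusted p = 0.0118), both higher. Cxcr2 is also a neutrophil gene, and Cxcr6 a gene of T and NK cells.

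Of the other chemokine ligands, 25 of 26 were measured, and 1 was called higher and 1 lower on CAF and 4 and 3 on STD, with medians of -0.03 and 0.02. Of all probe sets, 4.24% were called higher and 3.34% lower on CAF, and 5.88% and 5.38% on STD. Most of these ligands had signals below the median of probe set means, 6.865, such as Ccl25 with group means of 4.73 to 4.86. Differences of such genes would be hard to see, so the counts are not a like contrast with the 10 ligands. Without the 4 arrays of high Hspb1, 1 was called higher and 2 lower on CAF and 1 and 4 on STD. Xcl1, a chemokine of NK and T cells, was higher in WKY rats by 2.14 ± 0.34 on CAF (log2, SE, limma adjusted p = 0.000262). Cxcl6, which acts on neutrophils, was lower by -0.47 ± 0.10 (adjusted p = 0.00424), at low group means of 6.24 to 6.79. Ppbp of platelets (-0.44 ± 0.14) and the eosinophil attractant Ccl11 (-0.19 ± 0.07) did not pass (adjusted p = 0.0661 and 0.111).

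Genes that induce chemokines were mostly higher where they passed. Of 25 measured, 8 were called higher and 0 lower on CAF, and 12 higher and 1 lower on STD. On CAF these included the cytokine gene Tnf (log2 difference 1.16 ± 0.17, SE), the transcription factors Irf7 (1.18 ± 0.18) and Stat2 (0.49 ± 0.08) of the interferon response, and Nfkb2 (0.43 ± 0.09), an NF-kB subunit, with limma adjusted p of 0.000122, 0.000168, 0.000314 and 0.00387. Among 13 genes that restrain chemokine production, 2 were called higher on CAF, 10 on STD and 0 lower on either, with medians of 0.39 and 0.55. The 2 on CAF were Nfkbia, the inhibitor of NF-kB (0.38 ± 0.10, adjusted p = 0.0239), and Socs3, an inhibitor of cytokine receptors (0.52 ± 0.15, adjusted p = 0.0374). Zc3h12a, a nuclease that degrades cytokine mRNA, and Nfkbie had values of 0.52 ± 0.16 and 0.41 ± 0.13 and did not pass (adjusted p = 0.0616 and 0.0732). Without the 4 arrays of high Hspb1, 7 of these 13 were called higher on CAF and 11 on STD. Of the 25 inducers, 7 were then called higher and 1 lower on CAF, and 14 higher and 1 lower on STD.

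Of 11 proteases that shed or trim chemokines, 2 were called higher on CAF, 4 on STD and 0 lower, or 4 on each diet without the 4 arrays of high Hspb1. The 2 on CAF with all arrays were Mmp12, a macrophage elastase (0.99 ± 0.25, adjusted p = 0.0146), and Adam17, a sheddase of Cxcl16 (0.28 ± 0.07, adjusted p = 0.0158). Mmp9 (0.98 ± 0.30) and the neutrophil collagenase Mmp8 (1.03 ± 0.34) did not pass on CAF (limma adjusted p = 0.0540 and 0.0739). Of 13 markers of monocytes themselves, 0 were called higher and 3 lower in WKY rats on CAF (Fn1, Cx3cr1 and Mpeg1), and 2 higher and 2 lower on STD. Without the 4 arrays, 0 of these markers were called higher and 2 lower on CAF, and 2 higher and 2 lower on STD. No gene of any of these lists was called between the diets or for the interaction.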

How the data were processed

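RNA of the 20 rats was hybridised to 1 array each, and groups were taken from the sample labels. The authors deposited log2 values per probe set, normalised between arrays, as RMA values according to the methods and MAS5 according to the submitters' processing notes. These values were used as deposited, with 0 columns unmapped, 0 identical arrays and no filter. Gene names came from the platform annotation. The 10 ligands and the gene lists were chosen with earlier results of these data known. All 10 ligands are named, and of each further list up to 4 genes of the smallest adjusted p between the strains on CAF, with 1 probe set per gene, that of the highest mean. The lists share some genes, so their counts and means are not independent. Jun and Fos are among both the inducing and the immediate-early genes. Atf3 and Dusp1 are among both the restraining and the immediate-early genes, and Mmp8 is both a protease and a neutrophil marker.

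All comparisons were fitted with limma (version 3.58.1, R version 4.3.3) over all 28826 probe sets, with 1 mean per group (lmFit), eBayes without trend (16 residual and 3.67 prior degrees of freedom), Benjamini-Hochberg adjustment per comparison, and calls at an adjusted p under 0.05. Nothing states that rats of a group were of separate litters or cages, so p-values measure the spread between rats. The procedure was tested on simulated data. The strain comparisons on the 2 diets share no rats, only the estimate of spread, whereas each diet comparison shares its rats with the strain comparisons. Pairs of ligands were compared by Pearson r and Spearman rho of deviations from group means, with 100000 two-sided permutations within groups and adjustment over 45 pairs. The number of arrays limits the precision, with a median SE of 0.0689 on the log2 scale over all probe sets. Promoters came from RefSeq (GRCr8), which was used besides only for the order of genes. Alternatives were median centring, quantile normalisation, a filter on low signal, an intensity trend with robust prior, array weights, a fit of the compared groups alone, the replicate number as a block, marker means as covariates, and leaving out single rats or the 4 arrays of high Hspb1. The last, and the neutrophil and immediate-early covariates, were chosen after seeing the data.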

Additional observations from a re-analysis of the deposited data

Results flagged for a closer look

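Cxcl1 in WKY CAF rat 3 was at 10.86 on the log2 scale, while the nearest of the other 4 rats of the group was at 11.44, a gap of 0.792 of the whole range of the group. It was the only 1 of 40 combinations of ligand and group with a rat so far from the others, and chance alone gives about 1 in 20 such cases. Among the WKY CAF rats, Ccl2, Ccl7, Ccl20, Cxcl2, Cxcl10 and Cxcl16 were also lowest in this rat.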

How the results depend on the processing

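The higher signal in WKY rats kept its direction in all alternatives run for Ccl2, Ccl3, Ccl4, Ccl7, Cxcl1, Cxcl2 and Cxcl10 on both diets. The calls did not stay. Of the 10 ligands, 0 were called on either diet with the mean of the NK markers, of the immediate-early genes or of the neutrophil markers as a covariate, when 659, 833 and 1005 probe sets were called on CAF and 369, 493 and 429 on STD. With the NK mean the log2 differences on CAF grew to 0.90 for Ccl2, 1.37 for Ccl4, 1.92 for Cxcl1 and 1.25 for Cxcl2 and that of Cxcl10 was 0.82, although the adjusted p rose above 0.05, whereas with the other means those of Cxcl1, Cxcl2 and Cxcl10 shrank. With the monocyte marker mean 3 ligands were called on CAF and 5 on STD. It ended the calls of Ccl2 (limma adjusted p = 0.125), Ccl4 (0.518) and Ccl5 (0.381) on CAF and of Ccl4 on STD (0.0728). Without the 4 arrays of high Hspb1 3 were called on STD. The cause was not tested. Array weights gave 7 calls on each diet, with Ccl7 on CAF (limma adjusted p = 0.0174) and Ccl2 on STD (0.0486) added. Ccl2 on STD also passed with the filter on low signal (0.04999) and in a fit of the compared groups alone (0.0271). Median centring ended the calls of Ccl4 (adjusted p = 0.0506) and Cxcl2 (0.0566) on CAF and of Ccl3 on STD (0.0965). The fit of the compared groups alone ended the calls of Ccl4 on CAF (0.109) and of Ccl5 (0.0608) and Cxcl1 (0.0555) on STD.

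With the NK mean the strain difference of Ccl5, called on both diets without it, changed sign to -0.0693 on CAF and -0.1513 on STD. Other values that changed sign were not called without the alternative. With the NK mean that of Cxcl16 on CAF was 0.1177, and the diet differences were -0.0561 for Cxcl1 and -0.0144 for Cxcl16 in LEW and 0.0655 for Ccl5 and -0.2436 for Cxcl1 in WKY rats. With the immediate-early mean Cxcl16 differed by -0.0147 between the strains on STD, and the diet differences were 0.0056 for Cxcl10 in LEW and 0.1117 for Cxcl2 and 0.1641 for Cxcl10 in WKY rats. With the neutrophil mean Ccl20 differed by -0.0299 between the strains on STD, and the diet differences were -0.1583 for Cxcl1 in LEW and 0.0186 for Ccl20 and 0.0002 for Cxcl10 in WKY rats. With the monocyte mean the diet differences in WKY rats were 0.1214 for Ccl20, 0.0961 for Cxcl2 and 0.0797 for Cxcl10. Without the 4 arrays they were 0.0580 for Cxcl2 in LEW and -0.0735 for Cxcl1 in WKY rats. Ccl20 in WKY rats was at 0.0042 with median centring and 0.0105 with quantile normalisation, and Cxcl1 in LEW rats at -0.1402 with array weights. None of these was called under the alternative.

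With 1 rat left out at a time, the number of ligands called ran from 2 to 6 on CAF and from 3 to 6 on STD, and that of probe sets called between the diets in WKY rats from 0 to 1. Diet differences that changed sign ran from -0.1126 to 0.0503 for Ccl5, -0.2672 to 0.2578 for Cxcl1, -0.3198 to 0.0193 for Cxcl2, -0.2271 to 0.0599 for Cxcl10 and -0.0451 to 0.0569 for Cxcl16 in LEW rats, and from -0.0576 to 0.0598 for Ccl20, -0.2176 to 0.0219 for Ccl7 and -0.0808 to 0.1564 for Cxcl1 in WKY rats. The strain difference of Cxcl16 on STD ran from -0.0235 to 0.0785.

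The replicate numbers name different rats. The deviations of rats with the same number correlated by -0.177 to 0.43 over probe sets, those of rats with different numbers by -0.438 to 0.431, so the numbers did not pair the samples. With the replicate number as a block, 6 ligands were called on each diet and 1 probe set between the diets in WKY rats, against 0 without the block.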
